A study of Mus musculus with 8 samples.

Results

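Open chromatin was compared at 10 genes of the serum response, namely Srf, Egr1, Egr2, Egr3, Ier2, Actb, Acta2, Myl9, Tagln and Vcl, out of 21938 protein-coding genes of the annotation. The genes were listed by name as known targets of serum response factor (SRF), because the serum in the medium differed between the groups. For each gene, the peaks of all libraries were taken from the gene body and 20 kb on each side (mm10, GENCODE M21). A promoter peak overlapped the 1 kb around any annotated start of the gene, and a distal region lay further than 1 kb from every annotated start of any gene.

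The libraries were made by Omni-ATAC-seq, in which a transposase cuts accessible DNA in nuclei, from SN4741 cells, a mouse line labelled as wild-type neural precursor cells. The 37 °C group held 4 libraries of cells kept at 37 °C in DMEM with 10% fetal bovine serum. The 39 °C group held 4 libraries of cells moved, 24 h after passage, to 39 °C and DMEM with 0.5% serum for 48 h. The line was derived as 1 clone from embryonic midbrain of transgenic mice, in which the promoter of the tyrosine hydroxylase gene drives a temperature-sensitive T antigen. The antigen is unstable at the higher temperature, at which the cells are meant to stop dividing and to differentiate. Temperature and serum changed together, so that their parts in any difference cannot be told apart. The time from passage to harvest is not stated for the 37 °C cells and may have differed too. Each library held 50000 cells of the same line, and nothing in the labels says whether the replicates came from separate passages, so that p-values measure the spread between these 8 libraries alone.

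SRF is a transcription factor that binds the CArG box and works with partner proteins of different families. Ternary complex factors of the ETS family link it to the MAP kinase cascade that serum starts, and myocardin-related factors link it to the pool of free actin. Through the former, serum switches on immediate early genes such as Egr1 and Ier2 within minutes of addition. Through the latter, SRF maintains genes of the actin cytoskeleton and of contractile cells, such as Actb, Acta2, Myl9, Tagln and Vcl, and SRF also acts on its own gene.

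The sequence most of these genes share is the CArG box, which begins with CC, continues with 6 bases that are A or T and ends with GG. The boxes below lie in the peaks of the named genes, and they are shown because their place and coverage are described further on. Each is given 5′ to 3′ on the strand of the gene from the mm10 reference, with 10 bases on each side in lower case and the box in capitals.
Srf, chr17:46556225-46556254, box at −64 from the main start: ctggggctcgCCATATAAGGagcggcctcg
Srf, chr17:46556205-46556234, box at −44: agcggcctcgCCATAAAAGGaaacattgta
Egr2, chr10:67537787-67537816, box at −68 from the nearest annotated start: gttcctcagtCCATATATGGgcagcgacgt
Egr3, chr14:70076833-70076862, box at −356: ctttgtctgtCCATATATGGgcagctacgt
Actb, chr5:142906768-142906797, box at −28: ccgaaagttgCCTTTTATGGctcgagtggc
Actb, chr5:142908027-142908056, box at −1287: ccactgtagtCCATATATGGatgaagcctt
Myl9, chr2:156775293-156775322, box at −113: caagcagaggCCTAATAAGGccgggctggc
Tagln, chr9:45936151-45936180, box at −107: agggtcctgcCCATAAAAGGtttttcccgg
Vcl, chr14:20929161-20929190, box at −223: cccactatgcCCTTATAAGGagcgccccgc
Acta2, chr19:34265824-34265853, distal box at −10248: agctgccttcCCTTATAAGGttaaggttct
Acta2, chr19:34255438-34255467, 1 mismatch to the box, at 138: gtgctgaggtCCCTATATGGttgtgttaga
The same 10 letters CCATATATGG occurred at Egr2, Egr3 and Actb, and the windows of Egr2 and Egr3 shared 25 of their 30 bases. The letters CCATAAAAGG occurred at Srf and Tagln, and CCTTATAAGG at Vcl and at the distal site of Acta2. The Acta2 sequence with 1 mismatch lies downstream of the main GENCODE start but within the 250 bases upstream of the RefSeq start. No full box lay in the promoter region of Ier2.

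The lists held 84354, 76984, 74026 and 92013 peaks at 37 °C and 65718, 65232, 68410 and 54845 peaks at 39 °C. They rested on 49.8 to 169 M fragments at 37 °C and 52.7 to 71.2 M at 39 °C, so that 2 of the 37 °C libraries were far deeper than the others. The 39 °C lists were shorter than every 37 °C list, and the shares printed below for all genes or all regions carry that difference. In the 10 windows together the 37 °C libraries had 91, 80, 68 and 91 peaks and the 39 °C libraries 51, 46, 54 and 43. Promoter peaks of the precursor markers were present in part: Nes, Sox2, Pax6, Msi1 and Vim had one in all 8 libraries, Sox1 in 7, Hes5 in 2 libraries at 37 °C, and Fabp7 in none. Of 8 fibroblast markers, 5 had a promoter peak in all 8 libraries and 3 (Thy1, Dcn and Lum) in none. A promoter peak is not expression, and in a bulk library fewer cells with a site open and less opening per cell cannot be told apart.

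All 10 genes had a promoter peak in all 8 libraries, as had 13145 of the 21938 genes (59.9%). The promoters fell into 2 kinds by their width. Srf, Egr1, Egr2, Egr3, Ier2 and Actb lay under peaks averaging 5 kb or more, whereas the promoter peaks of Acta2, Myl9, Tagln and Vcl were narrower. Between the temperatures 6 of the 10 promoter peaks were narrower in every 39 °C library than in any 37 °C library, namely those of Egr1, Egr2, Egr3, Ier2, Actb and Myl9. Over all genes with a promoter peak in every library that share was 23.4%.

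**Figure D1:**
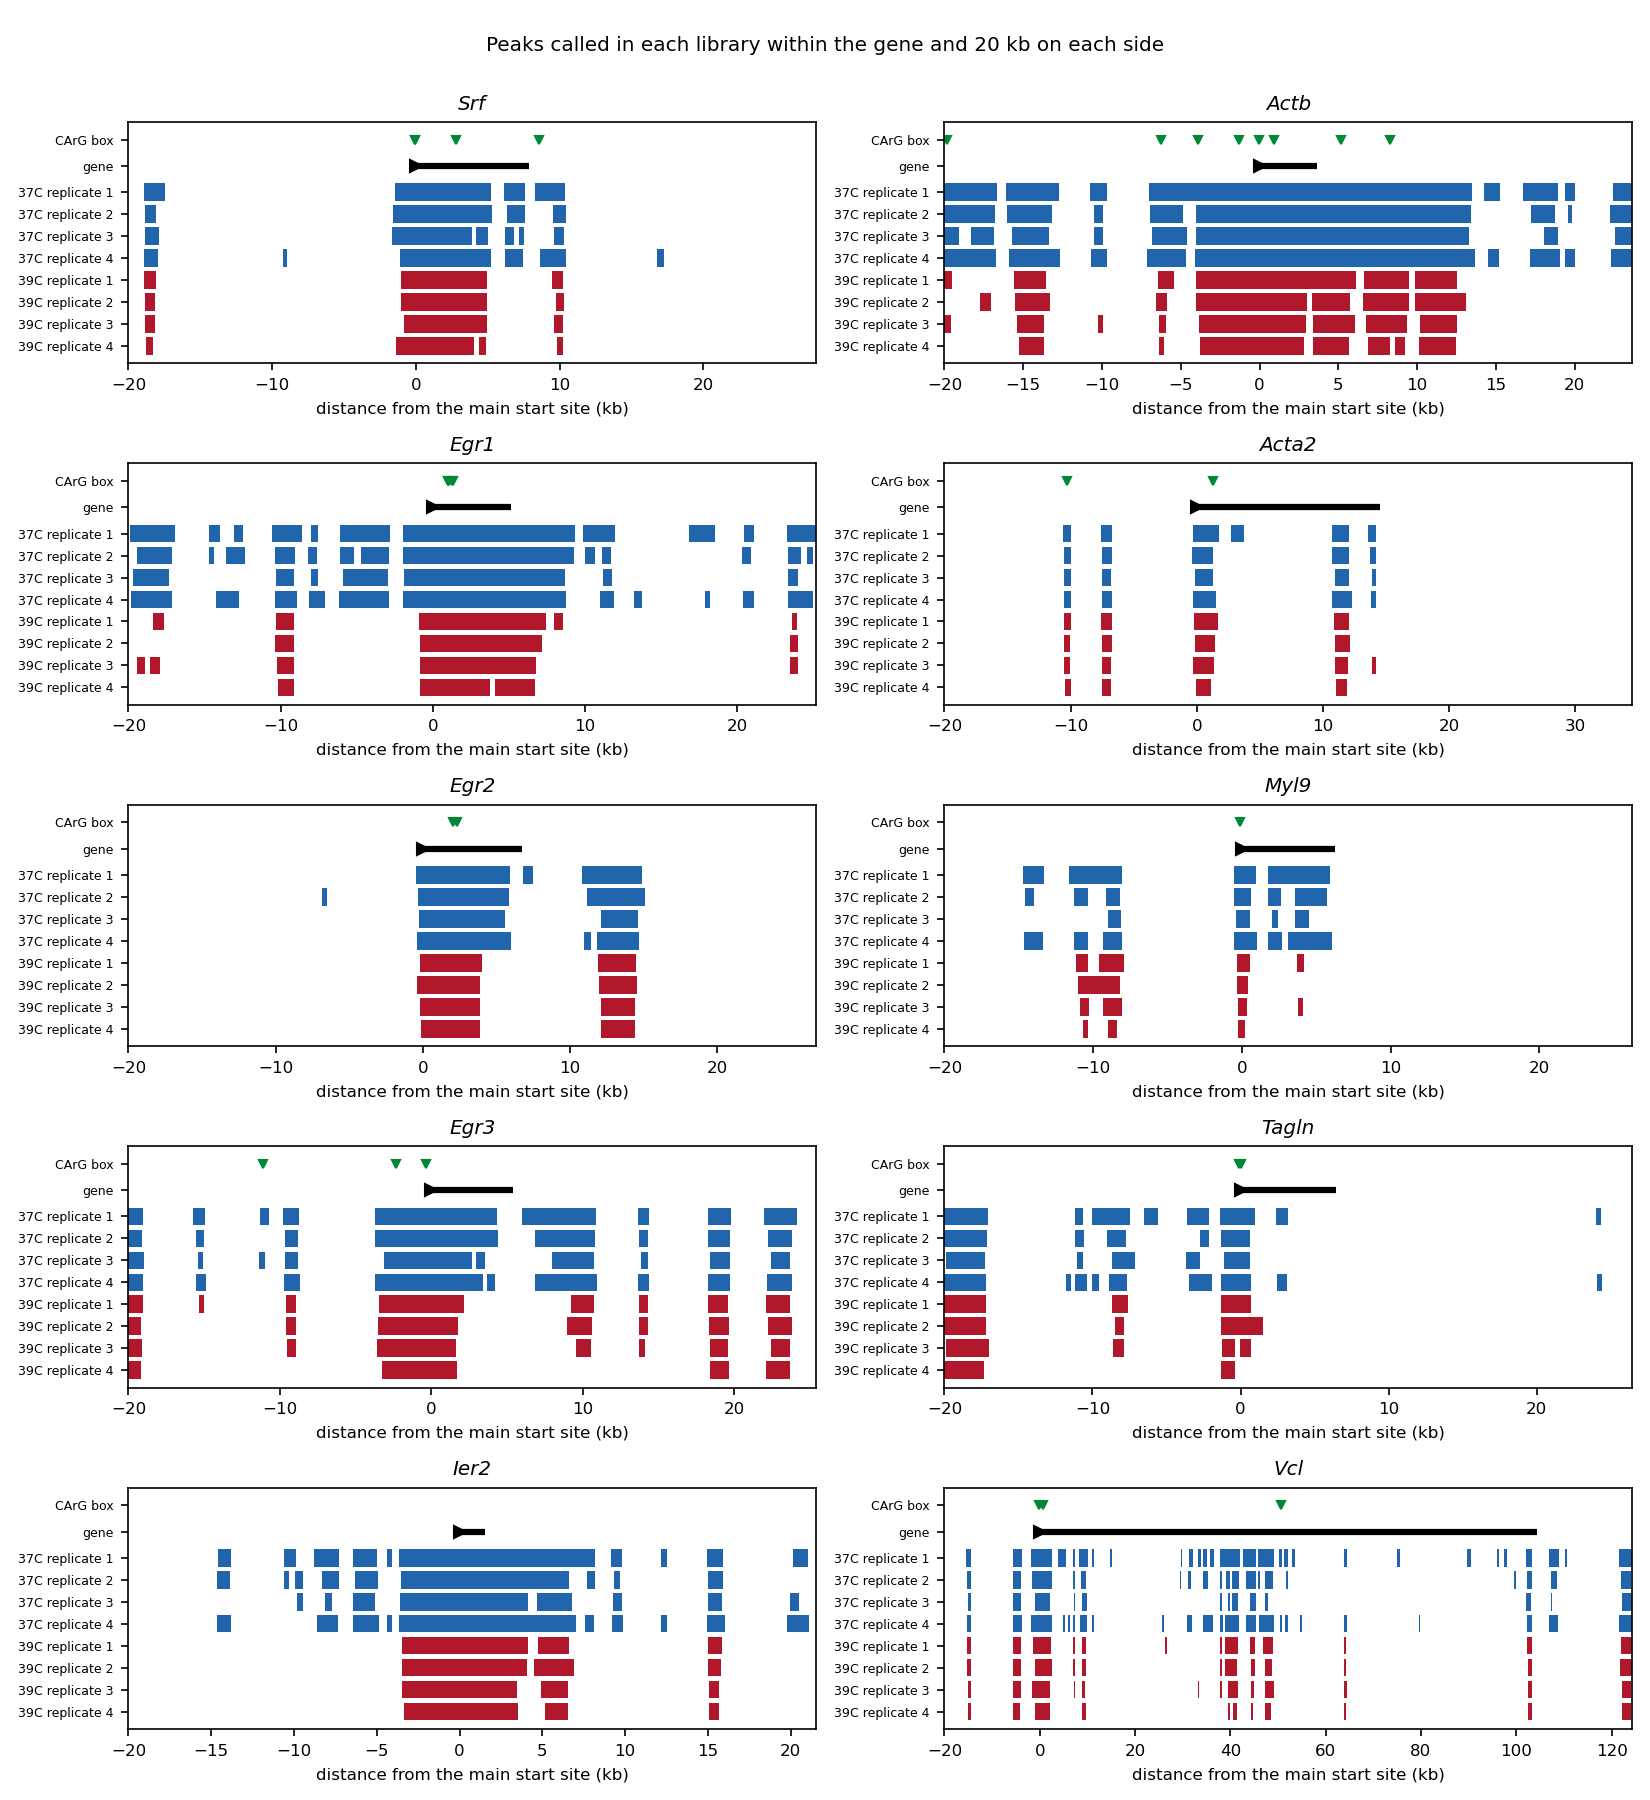
Called peaks around each of the 10 genes, 1 row per library (37 °C replicates 1 to 4 above 39 °C replicates 1 to 4), with distance from the main start of the gene in kb on the x axis each bar spanning 1 peak, and the gene body and the full CArG boxes (triangles) drawn above. The promoter peak is present in all 8 rows of every gene, and most of the smaller distal bars at Egr1, Ier2 and Actb appear in the 37 °C rows.

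Srf encodes the factor itself. Its promoter peak was 6702, 6850, 5575 and 6360 bp wide in the 37 °C libraries and 6021, 5966, 5791 and 5453 bp in the 39 °C libraries. The groups overlapped, since 37 °C replicate 3 was narrower than 3 of the 39 °C libraries (exact permutation test, two-sided, p = 0.143).

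The Egr genes encode zinc finger transcription factors made within minutes of a growth stimulus. The Egr1 peak was 11258, 11215, 10531 and 10692 bp wide at 37 °C and 8319, 7980, 7678 and 4638 bp at 39 °C. That of Egr2 was 6365, 6229, 5817 and 6401 bp wide at 37 °C and 4173, 4257, 4039 and 3994 bp at 39 °C. The Egr3 peak measured 8026, 8122, 5783 and 7109 bp at 37 °C and 5638, 5329, 5250 and 4969 bp at 39 °C. In none of the 3 did a 39 °C value reach the lowest 37 °C value, and the gap was widest for Egr1 and Egr2. The means differed by −34.5%, −33.6% and −27.0%, respectively. Ier2, an immediate early gene for a small nuclear protein, had widths of 11808, 10182, 7737 and 10712 bp at 37 °C and 7626, 7562, 6975 and 6875 bp at 39 °C. Here 37 °C replicate 3 lay just above the widest 39 °C value, and the groups barely separated.

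Actb, which encodes the cytoplasmic beta actin, had the broadest promoter peak of the 10 genes. A single peak covered 20523, 17495, 17357 and 17767 bp at 37 °C, against 10135, 7024, 6829 and 6647 bp at 39 °C (18286 ± 1501 and 7659 ± 1658 bp, mean ± SD, n = 4 each). It ranked 522nd of the 13145 genes by the ratio of its mean widths, lowest first. At 39 °C the stretch was cut into 4, 5, 5 and 6 peaks, where the 37 °C libraries had 1 or 2, so that the width of the strongest peak overstates the loss. Counted as bases under any peak of the merged promoter region, Actb went from 19966 ± 476 to 15378 ± 1358 bp, a change of −23.0%.

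The contractile genes had smaller promoter peaks. Myl9, for the regulatory light chain of smooth muscle and non-muscle myosin, had widths of 1456, 1168, 952 and 1574 bp at 37 °C and 847, 727, 551 and 446 bp at 39 °C, with no overlap and a difference in means of −50.1%. Peaks at any of its annotated starts, some of them inside the gene, numbered 2, 3, 3 and 3 at 37 °C and 2, 1, 2 and 1 at 39 °C. Acta2, the smooth muscle alpha actin, measured 2106, 1662, 1464 and 1866 bp at 37 °C and 1920, 1569, 1632 and 1218 bp at 39 °C, and the groups overlapped (exact permutation test, p = 0.4). Tagln, an actin-binding protein of smooth muscle, measured 2342, 1990, 1808 and 2046 bp at 37 °C. Its 39 °C values of 2003, 2833, 935 and 970 bp lay on both sides of these (exact permutation test, p = 0.4). Vcl, for vinculin of focal adhesions, measured 4375, 4229, 3054 and 4343 bp at 37 °C and 3751, 3483, 3698 and 3086 bp at 39 °C, and again the groups overlapped (exact permutation test, p = 0.229).

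**Figure D2:**
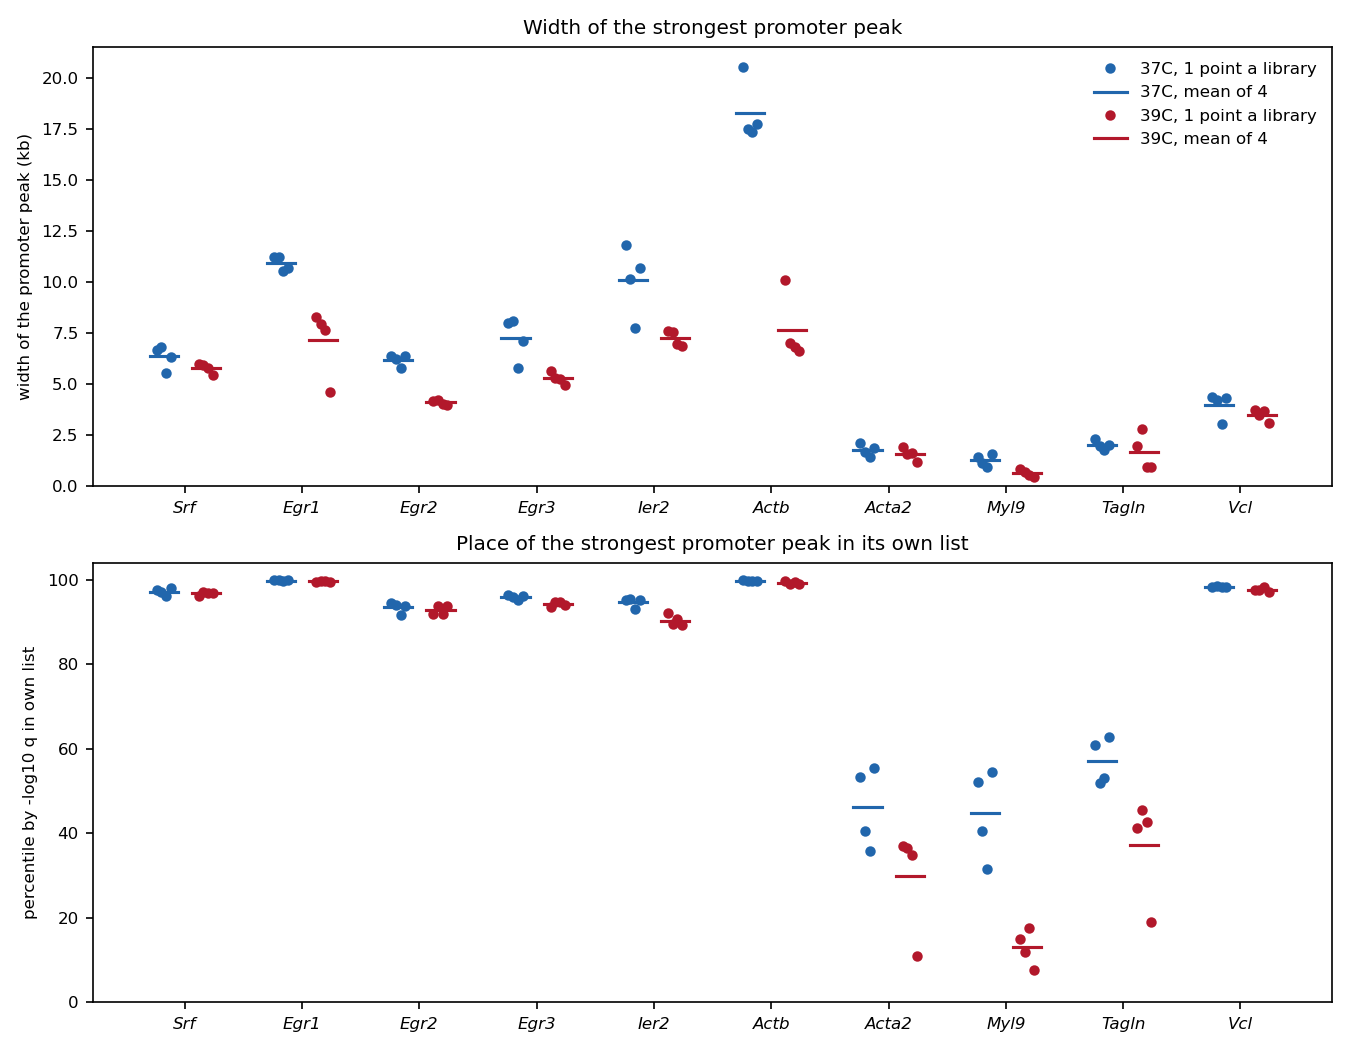
Width in kb and within-list percentile of the strongest promoter peak of each gene, 1 point per library with the group means as short lines. Widths at 39 °C lie wholly below those at 37 °C for Egr1, Egr2, Egr3, Ier2, Actb and Myl9, and percentiles separate most at Myl9 (means of 44.7 and 13.1).

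With 4 libraries against 4 the smallest two-sided p of the exact permutation test is 0.0286. Each of the 6 genes without overlap had that p, with an adjusted p of 0.121 by the Benjamini-Hochberg method over 13145 genes. At an adjusted p under 0.05 no gene passed, and 3092 did at an unadjusted p under 0.05. The median change over the 10 genes was −27.6%, and over all 13145 genes −12.7%. Broad promoter peaks differed more in general: of the 1119 genes averaging 5 kb or more, 475 (42.4%) did not overlap with 39 °C lower, and their median change was −29.8%. Of the 6 named genes in that class, 5 separated. As a rank among all widths of the same list, only Actb and Myl9 separated (15.2% of all genes did). Counted as bases under peaks in the merged promoter region, 6 genes separated against a background of 28.0%, with Srf added and Ier2 lost. The separation of the Ier2 widths thus depended on which of its peaks was measured.

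Measured at the edges of the strongest peak alone, the narrowing was uneven around the gene start. At Egr1 the upstream edge lay 1926 ± 41.1 bp from the start at 37 °C and 866 ± 28.5 bp at 39 °C, and the downstream edge 8996 ± 338 and 6286 ± 1689 bp. At Egr2, Egr3 and Actb only the downstream edge separated, from 5837 ± 195 to 3905 ± 69.5 bp, from 3709 ± 820 to 1834 ± 243 bp and from 13488 ± 151 to 3731 ± 1591 bp, respectively. At Actb, where the stretch was cut at 39 °C, further peaks still reached 12.5, 13.1, 12.5 and 12.4 kb downstream in the 39 °C libraries. Egr1 had a further peak from 4.1 to 6.7 kb in 39 °C replicate 4. At Myl9 both edges lay nearer the start at 39 °C. The upstream edge of Ier2 separated by little, at 3616 ± 41.4 and 3453 ± 61.2 bp, whereas its downstream edge overlapped between the groups. Each of these separations had the smallest exact permutation p, 0.0286, unadjusted (SD, n = 4 in each group).

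The strength of a promoter peak was ranked within its own list by −log10 of the q-value, on a scale on which 100 is the strongest peak. The promoters again fell into 2 kinds. Egr1 and Actb ranked above percentile 99 in all 8 libraries, Vcl above 97 and Srf above 96, whereas the 3 smooth muscle genes Acta2, Myl9 and Tagln lay near or below the middle. Myl9 was at 52.2, 40.6, 31.7 and 54.5 at 37 °C and at 15.1, 11.9, 17.6 and 7.71 at 39 °C. Tagln was at 61.0, 51.8, 53.1 and 62.8 at 37 °C and at 41.3, 45.6, 42.6 and 19.1 at 39 °C. Neither gene overlapped between the groups, and 39 °C replicate 4, from the shortest list, was lowest for both. Acta2 was at 53.4, 40.6, 35.8 and 55.6 at 37 °C and at 37.1, 36.5, 34.8 and 10.96 at 39 °C, with overlap (exact permutation test, p = 0.0857). In the order of the drop in percentile among 13145 genes, Myl9 ranked 85th, Tagln 524th and Acta2 759th. These ranks come from lists of unequal length, and without 1 library the Acta2 difference ranged from −20.0 to −10.2. With every list shortened to its strongest 54845 peaks, the difference at Tagln went from −20.0 to −8.55 (exact permutation test, p = 0.0571) and that at Acta2 from −16.5 to −1.24 (p = 0.771), and Myl9 was no longer in every list.

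At the strong promoters the ranks moved little. Ier2 went from 94.7 ± 1.14 to 90.4 ± 1.30, Egr3 from 96.0 ± 0.494 to 94.3 ± 0.630, Vcl from 98.4 ± 0.142 to 97.7 ± 0.401, Actb from 99.8 ± 0.0642 to 99.3 ± 0.293 and Egr1 from 99.9 ± 0.0605 to 99.6 ± 0.0583. These 5 genes also separated, giving 7 of 10 lower and 0 higher, against 52.4% and 0.510% of all genes. The adjusted p of each was 0.0540 (exact permutation test with Benjamini-Hochberg adjustment over 13145 genes). No gene passed an adjusted p of 0.05, and 6955 did at an unadjusted p under 0.05. When every list was shortened to its strongest 54845 peaks, 3 of the 10 genes separated, namely Egr1, Ier2 and Actb. The 52.4% is that of the full lists, and no share over all genes is given for the shortened ones.

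Over the gene body with 20 kb on each side, 7 genes had fewer bases under peaks in every 39 °C library than in any 37 °C library, against 39.2% of 18337 genes. Egr1 had 27496, 22785, 18710 and 24985 bp at 37 °C and 11115, 9755, 10447 and 8313 bp at 39 °C. Actb had 33385, 29434, 26895 and 32216 bp at 37 °C and 19124, 19180, 17376 and 15321 bp at 39 °C. The others were Srf, Egr2, Egr3, Ier2 and Tagln, and Acta2, Myl9 and Vcl overlapped. The adjusted p of each was 0.0725 (exact permutation test with Benjamini-Hochberg adjustment).

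Of the bases under a peak in all 4 libraries at 37 °C, the windows of the 10 genes held 114279. At 39 °C 61.9% of these were under a peak in all 4 libraries and 17.6% in none, where the genome as a whole gave 69.7% and 8.95%. Myl9 kept the smallest share of the 10 genes, with 33.5% in all 4 and 29.9% in none, and Egr1 came next, with 46.4% and 33.0%. Vcl kept 75.0% and lost 6.29%, and Acta2 kept 76.2% and had no such base uncovered in all 4. No base of the 10 windows was covered in all 4 libraries at 39 °C and in none at 37 °C, a count that was not made for the whole genome.

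The height of a region, as distinct from its width or rank, was the number of fragments stacked at the highest summit, on a log2 scale centred for the depth of each library. The regions were fitted with limma over the 44861 regions called in all 8 libraries, and calls were made at a Benjamini-Hochberg adjusted p under 0.05. Over all promoter regions 16.9% were called lower and 21.3% higher at 39 °C. Of the 10 promoters 2 were called lower, Myl9 and Tagln, and 2 higher, Srf and Egr2. The other 6 did not pass.

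The Myl9 promoter had a pileup of 186, 59, 37 and 163 fragments at 37 °C and 38, 39, 38 and 25 at 39 °C. Centred for depth, these were 0.49, 0.23, 0.04 and 0.49 at 37 °C and −0.42, −0.45, −0.38 and 0.01 at 39 °C. Every 39 °C value lay below every 37 °C value, although 39 °C replicate 4 almost met 37 °C replicate 3. The difference was −0.62 ± 0.15 (SE, limma, adjusted p = 0.00141), a fold of 0.65. Among the 6 libraries under 100 M fragments alone it was −0.45 (adjusted p = 0.0977). The Tagln promoter had centred heights of 0.25, −0.02, 0.18 and 0.23 at 37 °C and −0.18, 0.07, −0.18 and −0.35 at 39 °C, with overlap through 39 °C replicate 2. Its difference of −0.32 ± 0.12 passed the limma test (adjusted p = 0.0298), and the call was lost under quantile normalization (−0.27, adjusted p = 0.0671) and among the libraries under 100 M fragments (−0.24, adjusted p = 0.238). It was also lost without 37 °C replicate 1 (−0.29) or 4 (−0.30) and without 39 °C replicate 1 (−0.31), 3 (−0.31) or 4 (−0.25). Acta2, also a smooth muscle gene, gave −0.09 ± 0.13 (limma, adjusted p = 0.604).

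The Srf promoter had centred heights of −0.08, −0.02, −0.11 and −0.14 at 37 °C and 0.03, 0.12, 0.08 and 0.13 at 39 °C, with no overlap, and rose by 0.18 ± 0.07 (limma, adjusted p = 0.0298). The Egr2 promoter had values of −0.04, 0.03, −0.14 and −0.23 at 37 °C and 0.01, 0.15, −0.02 and 0.24 at 39 °C, which overlapped, with a difference of 0.19 ± 0.07 (limma, adjusted p = 0.0348). Both differences were near the median of strong promoters as a class: the 5924 promoter regions with a mean percentile of 90 or more had a median of 0.13 under this scaling. Quantile normalization brought that median to 0.01, the difference of Srf to 0.04 and that of Egr2 to 0.09, and neither call remained. The call of Srf was also lost without 37 °C replicate 1 (0.18) or 4 (0.16) and without 39 °C replicate 2 (0.17), 3 (0.18) or 4 (0.16). That of Egr2 was lost without 37 °C replicate 3 (0.17) or 4 (0.14) and without 39 °C replicate 2 (0.17) or 4 (0.14). Egr1 differed by 0.07, Egr3 by 0.06, Actb by 0.00 and Vcl by 0.11, and these 4 turned negative under quantile normalization, where Egr1 and Actb were called lower. Ier2 gave −0.13 (limma, adjusted p = 0.137), and it was called lower under quantile normalization (−0.23, adjusted p = 0.00355) and among the libraries under 100 M fragments (−0.19, adjusted p = 0.0413).

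Under this scaling, narrower peaks at Egr1 and Actb came without a height that passed the test. At Actb the strongest peak was without most of its downstream stretch at 39 °C, while its summit had a pileup of 4571, 1724, 1266 and 3496 fragments at 37 °C and 1858, 1672, 1730 and 778 at 39 °C and differed by 0.00 ± 0.08 once centred. Under quantile normalization, however, the heights of both were called lower, Egr1 by −0.13 (limma, adjusted p = 0.0182) and Actb by −0.18 (adjusted p = 0.00363), so that the contrast of width and height depends on the scaling. At Myl9 both measures were lower. Among the 6 libraries under 100 M fragments, which give 2 against 4 and no exact permutation p below 0.0667, the width difference was −3719 bp at Egr1 and −9767 bp at Actb, against −3770 and −10627 bp over all libraries. It was smaller by over 1.5 times at Ier2 (−1700 against −2850 bp) and at Myl9 (−417 against −645 bp), and 6 of the 10 genes did not overlap.

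The distal regions of the 10 genes numbered 55 of 62699 in the genome. Most lay at Vcl (18), Ier2 (9), Egr1 (8), Actb (7) and Egr3 (6), with 4 at Acta2, 2 at Tagln, 1 at Myl9 and none at Srf and Egr2. Called regions numbered 55, 42, 36 and 51 in the 37 °C libraries and 23, 22, 25 and 18 in the 39 °C libraries. The means of 46.0 ± 8.60 and 22.0 ± 2.94 differ by −52.2%, where over all distal regions the difference was −25.1%. Of the 55, 17 (30.9%) were called in all 8 libraries, against 45.7% of all distal regions. At 37 °C in all 4 libraries and at 39 °C in none were 9 (16.4%), against a background of 6.24%, and 0 had the opposite pattern, against 0.407%.

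Egr1 had 8, 7, 5 and 8 distal regions called at 37 °C and 2 in each 39 °C library. Ier2 had 9, 6, 6 and 8 at 37 °C and 1 in each at 39 °C. Actb had 7, 6, 5 and 7 at 37 °C and 2, 2, 3 and 2 at 39 °C. These were the genes whose groups did not overlap, 3 lower and 0 higher, as for 22.6% and 0.314% of 15937 genes with a distal region in their window (exact permutation test, p = 0.0286, adjusted p = 0.125). Egr3, with 6, 5, 6 and 5 at 37 °C and 5, 4, 4 and 1 at 39 °C, and Vcl, with 18, 13, 9 and 16 at 37 °C and 9, 9, 10 and 8 at 39 °C, overlapped. At an adjusted p under 0.05 no gene passed, and 3644 did at an unadjusted p under 0.05. The deepest 37 °C libraries, replicates 1 and 4, had the most regions at Egr1, Ier2, Actb and Vcl, and replicates 2 and 3, with 64.2 and 49.8 M fragments, had 42 and 36 over all genes, above the 18 to 25 of the 39 °C libraries.

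The 9 regions called at 37 °C alone lay at Egr1 (3), Ier2 (3), Actb (2) and Vcl (1), and without 37 °C replicate 3, the shallowest of its group, they numbered 16. The strongest was upstream of Egr1, at chr18:34853626-34857028 with its summit at −3.45 kb from the start. It ranked at percentile 56.5, 51.1, 45.6 and 59.2 of the 37 °C lists and was in none of the 39 °C lists. It was also the only one of the 9 that kept this pattern when all lists were shortened to 54845 peaks. Another at Egr1, chr18:34869711-34871782 at 11.3 kb, ranked at 44.8, 17.5, 33.8 and 44.4, and the weakest, chr18:34851642-34852724 at −7.77 kb, at 12.4, 5.64, 2.74 and 22.2. At Ier2 the strongest, chr8:84652973-84653707 at 9.48 kb, ranked at 31.3, 28.0, 32.7 and 40.1, and chr8:84667709-84669312, at −5.83 kb, at 22.7, 10.3, 21.1 and 22.9. At Actb, chr5:142887710-142890024 at 18.5 kb and chr5:142882635-142884489 at 23.2 kb had mean percentiles of 20.6 and 12.1. All but the first of these stood below the middle of their lists. Regions within 1 kb of a start but outside the strongest promoter peak are not among the 9. Of those, chr17:46548554-46550061 in the Srf gene body had the same pattern, at percentiles 43.0, 40.6, 29.3 and 41.5. So had chr9:45937991-45939759 and chr9:45946445-45947258 upstream of Tagln, with mean percentiles of 8.81 and 9.22. No genome share is given for such regions.

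The strong distal regions were present at both temperatures. A region was counted and measured whole where any part of it reached into the window, and 2 of the regions described here had their summits beyond the 20 kb. At Egr1, chr18:34883104-34889282, with its summit outside the window at 27.6 kb, ranked at 95.6, 96.7, 95.4 and 96.3 at 37 °C and at 93.3, 93.3, 94.7 and 92.1 at 39 °C, and its height differed by −0.03 ± 0.07 (limma, adjusted p = 0.721). The peaks of this region that reached into the window ranked at 95.6, 62.6, 54.7 and 65.2 at best in the 37 °C libraries and at 26.1, 31.1 and 27.2 in 39 °C replicates 1 to 3, with none in replicate 4. At Actb, chr5:142919397-142922822, at −14.2 kb, had a mean percentile of 94.0 and a height difference of −0.02 (limma, adjusted p = 0.822). The neighbouring chr5:142923434-142933898, with its summit outside the window at −22.6 kb, was lower by −0.17 ± 0.07 (limma, adjusted p = 0.0385), a call that was lost without 37 °C replicate 1 (−0.15) or 2 (−0.14) or 39 °C replicate 1 (−0.14) or 2 (−0.17). Its peaks that reached into the window ranked at 47.7, 37.3, 44.3 and 95.9 at best at 37 °C and at 4.78, 6.24 and 0.955 in 39 °C replicates 1 to 3, with none in replicate 4.

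Of the 17 distal regions called in all 8 libraries, 5 were called lower and 5 higher in height at 39 °C, against 27.2% and 23.8% of 28663 distal regions. The largest difference was at Ier2, chr8:84646840-84647912 at 15.3 kb, with a pileup of 379, 134, 93 and 351 fragments at 37 °C and 76, 102, 61 and 34 at 39 °C. All 4 of its centred heights at 39 °C (−0.44, −0.08, −0.72 and −0.57) lay below all 4 at 37 °C (0.50, 0.39, 0.35 and 0.57), and it fell by 0.90 ± 0.12 (log2, limma, adjusted p = 3.75e-07). This was the only distal region of Ier2 called at 39 °C.

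The gene body of Vcl held neighbouring regions that changed in opposite directions. The region chr14:20972048-20974827, at 44.6 kb, had centred heights of 0.53, 0.53, 0.24 and 0.47 at 37 °C and −0.52, −0.35, −0.76 and −0.14 at 39 °C, and its height fell by 0.89 ± 0.12 (limma, adjusted p = 7.02e-07). The region before it, chr14:20967180-20971348 at 39.8 kb, had −0.13, −0.53, −0.51 and −0.13 at 37 °C and 0.52, 0.21, 0.42 and 0.16 at 39 °C and rose by 0.65 ± 0.12 (limma, adjusted p = 4.11e-05). The region after it, chr14:20975168-20978584 at 47.5 kb, rose by 0.38 ± 0.12 (limma, adjusted p = 0.0114), with overlap between the groups, and this call was lost without 37 °C replicate 2 (0.30). Nearer the start, chr14:20937605-20939547 at 9.24 kb was lower by −0.20 ± 0.08 (limma, adjusted p = 0.0356), a call that was lost without any 1 of 6 libraries, with values from −0.15 to −0.22. The Vcl promoter itself differed by 0.11 and did not pass.

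Acta2 had distal changes of both signs. Upstream of it, chr19:34265536-34266158, at −10.31 kb, held the full CArG box printed above within 100 bp of its summit, and also an AP-1 and a TEAD motif. Its pileup was 284, 119, 72 and 243 fragments at 37 °C and 82, 73, 93 and 33 at 39 °C, and its height fell by 0.48 ± 0.12 (limma, adjusted p = 0.00146), with no overlap of the centred values. In the gene body, chr19:34243246-34244857 at 11.3 kb rose by 0.39 ± 0.11 (limma, adjusted p = 0.00409). At Egr3, chr14:70095471-70096994 at 19.1 kb, its strongest distal region, rose by 0.27 ± 0.07 (limma, adjusted p = 0.00137), with all 39 °C values above all 37 °C values. The only distal region of Myl9, chr2:156763798-156767521 at −8.58 kb, differed by 0.09 ± 0.12 (limma, adjusted p = 0.578). Tagln had no distal region called in more than 2 libraries, and the stronger of its 2, chr9:45911652-45912080 at 24.2 kb, was called in 2 libraries at 37 °C. Some windows hold other genes, such as Sidt2 and Pcsk7 at Tagln and Fbxl18 at Actb, and a distal region was given to a gene by position alone.

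The full CArG box lay within 100 bp of the promoter summit in 4 of the 10 genes, against 0.684% of 22078 promoter regions, and with 1 mismatch allowed in 7 of 10, against 5.36%. Within 250 bp the full box lay in 6 of 10, against 1.77%. Since the genes were listed as known SRF targets, their boxes are no independent result. The AP-1 motif, TGANTCA on both strands, lay within 100 bp of none of the 10 promoter summits, against 13.8% of promoter regions, and in 13 of the 55 distal regions, against 34.3%. Within 250 bp it lay at 2 of the 10 promoter summits, against 19.8%, and in 19 of the 55 distal regions, against 43.4%.

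The peaks of the 10 genes held 30 full boxes, 25 of them in the promoter regions of 9 genes. Egr1 had 5, all in exon sequence of the annotation, and Actb had 8, of which 7 in its promoter region. Those of Egr1 lay 981 to 1305 bp from its main start. The annotation gives Egr1 2 starts, and the distance from the other was not measured. All 8 libraries covered 21 of the 30 with a peak (70%), against 39.99% of 7029 boxes in regions of the genome and 48.4% of those in promoter regions. Of the 27 boxes under a peak in all 4 libraries at 37 °C, 21 were so at 39 °C and 0 were uncovered in all 4. Of all 4026 such boxes, 2811 (69.8%) were so and 7.90% uncovered. None of the 30 was covered at 37 °C alone in this sense, against 4.52% of all boxes.

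The boxes printed for Srf, Egr2, Egr3, Actb, Myl9 and Vcl were under a peak in all 8 libraries, the Egr2 and Egr3 boxes included, although those peaks were narrower at 39 °C. Of the printed boxes, only that of Tagln lost its peak in some 39 °C libraries. Other full boxes, not printed, were under a peak in 4 of 4 libraries at 37 °C and in fewer at 39 °C. These were Actb at 8310 (3 of 4), −3928 (2 of 4) and −19827 (2 of 4), Acta2 at 1298 (3 of 4) and Tagln at 16 (3 of 4). The Tagln box at −107 was under a peak in 4 of 4 libraries at 37 °C and 2 of 4 at 39 °C. In 39 °C replicates 3 and 4 the strongest Tagln peak lay wholly upstream of the start. A peak over a box does not show that SRF is bound there.

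Other genes of the pathway were read from a list of SRF partners, immediate early genes and cytoskeletal genes. Of 6 cofactors and partners, all had their promoter region in the height fit, with 0 called lower and 2 higher, against 16.9% and 21.3% of all promoter regions. Myocd, the muscle and heart coactivator of SRF, was higher by 0.26 (limma, adjusted p = 0.0305) in its merged region, although a peak reached the 1 kb around its starts in 4 libraries at 37 °C and 3 at 39 °C. Elk4, a ternary complex factor, was higher by 0.18 (limma, adjusted p = 0.0470). Mrtfa and Mrtfb, the actin-sensing coactivators, had differences of 0.10 and 0.11 that did not pass. None of the 5 partners tested for width separated.

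Of 13 other immediate early genes with a height, 1 was called lower and 5 higher, against the same 16.9% and 21.3%. Those higher were Mcl1, Dusp1, Junb, Fos and Ier5, with differences of 0.23, 0.22, 0.22, 0.20 and 0.17 on the log2 scale, and Ier3 was lower by −0.20 (limma, adjusted p = 0.0134). The 5 higher values have the sign of the median of strong promoters under this scaling, 0.13. The Junb and Fos proteins form AP-1, and Dusp1 is a phosphatase of MAP kinases. Only Ccn1 and Arc had narrower promoter peaks without overlap, 2 of 13, against the 23.4% of all genes and 42.4% of those averaging 5 kb or more. In percentile 6 of the 13 ranked lower without overlap, against 52.4% of all genes.

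Of 26 cytoskeletal and contractile genes, 21 had a promoter peak in every library, and 11 of these were narrower at 39 °C without overlap, against 23.4% of all genes and 42.4% of those averaging 5 kb or more. Their median change over the 21 was −29.3%. Among the 11 the widest at 37 °C were Tpm1 (tropomyosin), from a mean of 30108 to 16490 bp, and Cfl1 (cofilin), from 19026 to 5692 bp. Next came Pfn1 (profilin), from 14049 to 6872 bp, Cnn2 (a calponin), from 14038 to 8757 bp, and Actg1 (gamma actin), from 13181 to 8113 bp. The smallest changes among the 11 were −12.5% at Tln1 and −19.4% at Tpm2. These are widths of the strongest peak, which overstate a loss where a peak is cut. Of the 21, 13 also ranked lower in percentile without overlap, against 52.4% of all genes. In height 2 of the 21 were called lower and 1 higher, against 16.9% and 21.3% of all promoter regions. Those lower were Cald1 (caldesmon) by −0.40 (limma, adjusted p = 9.35e-06) and Tpm4 by −0.18 (adjusted p = 0.0363), and Pdlim7 was higher by 0.19 (adjusted p = 0.0287). The muscle actins Actc1 and Actg2 had no promoter peak, and Acta1 had one in 1 library.

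Cnn1 (calponin) and Lmod1 (leiomodin), both smooth muscle genes and singled out after their values were seen, had a promoter peak in 4 of 4 libraries at 37 °C and 0 of 4 at 39 °C, a pattern of 321 genes (1.46%). In the list of 6 smooth muscle and pericyte markers, the same held for Cnn1 and for Des (desmin). Myh11, the smooth muscle myosin, kept its promoter peak in 1 of the 39 °C libraries after 4 of 4 at 37 °C, Myocd went from 4 to 3, Cspg4 had one in all 8, and Rgs5 in none. In height, 16.9% of all promoter regions were called lower and 21.3% higher. Among precursor markers 1 of 6 was called lower and 0 higher, and among fibroblast markers 1 of 5 lower and 1 higher. Among smooth muscle and pericyte markers 1 of 2 was called lower and 1 higher. Those lower were Nes at −0.29 (limma, adjusted p = 0.00138), Col1a2 at −0.27 (adjusted p = 0.0118) and Cspg4 at −0.25 (adjusted p = 0.0194). Those higher were Twist1 at 0.31 (limma, adjusted p = 0.00046) and Myocd at 0.26. The part of a change in cell makeup in the values of Myl9 and Tagln was not tested.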

How the data were processed

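Omni-ATAC-seq peak lists of 8 SN4741 libraries were used, 4 per temperature, each mapped to its group by its label. The authors aligned read pairs to mm10 with Bowtie2 2.4.1, removed duplicates with SAMtools 1.15.1 and Picard 2.26.11, and called peaks per library with MACS3 3.0.0a7, with no control, no local background and a q cutoff of 0.05 per the file headers. They removed blacklisted regions with bedtools 2.30.0. The deposited lists give, per peak, its position and summit, a pileup signal in fragments that is not scaled for depth, a fold enrichment ratio and the −log10 of the p-value and q-value.

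Peaks of all lists were merged where they overlapped by 1 bp, and regions found in 2 or more libraries were kept (84777). Genes and starts came from GENCODE M21. Widths and percentiles were compared with a two-sided exact permutation test over libraries and heights with limma 3.58.1 (trend), with Benjamini-Hochberg adjustment over all genes or regions. The percentile was taken because −log10 q depends on depth. Motifs were searched on both strands of mm10. RefSeq promoters (GRCm38) matched 5 of the 10 genes and held a CArG box in 4. Scripts were tested on simulated data. All 10 genes are named. Distal regions are named where they passed the limma test or were called at 1 temperature alone, at most 3 per gene, with the strongest of each gene. Up to 5 pathway genes per direction are named by height. Others are named by width, namely the immediate early genes that separated, and the widest and least changed of the cytoskeletal genes that did. The genes, lists and tests were chosen with earlier results of these data known.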

Additional observations from a re-analysis of the deposited data

Results flagged for a closer look

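A test for 1 library far from the other 3 of its group marked 10 of 80 groups of values. Chance gives about 4 if the values are continuous and independent, which counts and measures of the same libraries are not. A count that differs from 3 equal ones is marked however small the difference. At Actb the promoter peak was 20523 bp wide in 37 °C replicate 1, the deepest library, and 10135 bp in 39 °C replicate 1, against 17357 to 17767 bp and 6647 to 7024 bp in the others. The Vcl peak was 3054 bp wide in 37 °C replicate 3, the shallowest library of its group, against 4229 to 4375 bp. The same library had Ier2 at percentile 93.0, against 95.2 to 95.4. In 39 °C replicate 4, whose list was the shortest, Acta2 stood at percentile 10.96 and Tagln at 19.1, against 34.8 to 37.1 and 41.3 to 45.6. In that library the centred height of Myl9 was 0.010, against −0.38 to −0.45, so that it was the 39 °C library nearest to the 37 °C values. The centred height of Egr3 was −0.039 in 39 °C replicate 1, against 0.05 to 0.06. In 39 °C replicate 3 there were 3 distal regions at Actb and 4 at Acta2, against 2 and 3 in each of the other 39 °C libraries.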

How the results depend on the processing

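All 10 promoters had a peak in all 8 libraries, and 9, all but Myl9, did at −log10 q of at least 5 and with equal numbers of peaks. Width separated 6 genes, or 5 to 8 under other list settings and leave-outs, but 2 as a rank among widths, a measure added after seeing the data. Percentile separated 7, and 3 with equal numbers of peaks. The 9 distal regions called at 37 °C alone became 5 at −log10 q of at least 5, 1 with equal numbers of peaks, 20 with a flank of 50 kb, 4 in summit windows, and 9 to 16 without 1 library. Those called in all libraries, 17, became 11 and 40 with flanks of 10 and 50 kb and 9 when 50% of a region had to be covered. Those at 39 °C alone, 0, became 1 among libraries under 100 M fragments (at Vcl) and 1 in summit windows (at Actb). The distal regions, 55, became 25 with equal numbers of peaks, 36 with 10 kb and 107 with 50 kb.

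Promoter heights called lower, 2, became 4 under quantile normalization (Myl9, Egr1, Ier2 and Actb), 1 with equal numbers of peaks (Tagln), 1 among libraries under 100 M fragments (Ier2), and 1 to 2 without 1 library. Those called higher, 2, became 0 under quantile normalization, 0 among the shallower libraries, 0 without the intensity trend, and 0 to 2 without 1 library. Distal heights called lower and higher, 5 each, ranged over 3 to 6 and 3 to 5 without 1 library. Promoters with a CArG box numbered 7 with 1 mismatch, and boxes covered at 37 °C alone 1 at −log10 q of at least 5 and 1 with equal numbers of peaks.

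Some differences changed sign. Under quantile normalization the heights of Egr1, Egr3, Actb and Vcl gave −0.13, −0.051, −0.18 and −0.040. Among libraries under 100 M fragments, they gave −0.016, −0.010, −0.053 and −0.0052, Acta2 gave 0.075 in height and 21.8 bp in width, and Srf 0.18 in percentile. With equal numbers of peaks, the percentile differences of Srf and Egr2 were 0.369 and 1.2. By fold enrichment the Actb height was −0.00028. Without 1 library the height ranged from −0.047 to 0.036 at the Actb promoter, from −0.076 to 0.023 at the Egr1 region at 27.6 kb and from −0.058 to 0.030 at the Actb region at −14.2 kb. The cause of these changes was not tested.

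Replicate numbers did not pair the samples, since same-numbered libraries had correlated deviations of 0.09, −0.11, 0.14 and 0.04. With the replicate block the counts were 6 for width, 8 for percentile, 2 and 2 for promoter height and 5 and 5 for distal height. Among libraries under 100 M fragments 6 widths did not overlap, and 10 of 38 distal regions were called at 37 °C alone.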
